A study of Mus musculus with 4 samples.

Results

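The transcripts described here encode the machinery that licenses, fires and copies the DNA of a dividing cell. They were chosen by name as 47 genes of origin licensing, the replicative helicase, the DNA polymerases, the sliding clamp and its loader, nucleotide supply and lagging strand completion, out of 20735 gene IDs in the tables. All 47 were listed in every library and all passed the filter that defined the 10883 tested genes, a mean of 1 FPKM or more. FPKM adjusts the fragments of a gene for transcript length and sequencing depth. The RNA came from germinal centre B cells, which divide rapidly and mutate their antibody genes after meeting antigen. The cells were sorted from spleens of C57BL/6 mice aged 8 weeks that had received sheep red blood cells as antigen. There were 2 libraries from Nsd2 knockout (ko) cells and 2 from wild-type (wt) cells. Nsd2 dimethylates lysine 36 of histone H3. The allele, whether the deletion was limited to B cells, and whether the 2 libraries of a group came from separate mice are not stated, so p-values measure the spread between these libraries, which may be technical.

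Replication starts when the origin recognition complex, Cdc6 and Cdt1 load rings of Mcm2 to Mcm7 onto DNA in G1 phase, a step called licensing that geminin blocks after S phase begins. The Cdc7 kinase with Dbf4 then fires the origin, and Cdc45 and the GINS complex join the ring to form the moving helicase. Polymerase alpha with its primase starts each strand, the RFC complex loads the PCNA clamp, and polymerases delta and epsilon extend the strands. Fen1 and Lig1 join the lagging strand pieces, while RPA covers the unwound single strands. Germinal centre B cells have very short cell cycles and carry these transcripts at high levels.

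The knockout and the cell identity were checked first. Nsd2, listed as Whsc1, had 31.4 and 34.1 FPKM in the ko libraries, against 76.9 and 81.4 FPKM in the wt libraries (limma, Benjamini-Hochberg adjusted p = 0.000353). The ko libraries therefore retained 41.4% of the wt transcript level. The 10 germinal centre markers summed to 1356 and 1372 FPKM in ko and 1362 and 1372 FPKM in wt, with a median log2 fold change of -0.04. At a limma adjusted p below 0.05, 2 of them, Neil1 and Mef2b, were lower and 1, Rgs13, higher in ko. Of all tested genes 6.20% were lower and 6.66% higher. Without Rgs13 the other 9 summed to 1167 and 1186 FPKM in ko and 1221 and 1230 FPKM in wt. The libraries listed 17731 to 17922 genes. Steps among the lowest FPKM values put the depth of the ko libraries at 75.5% and 77.1% of that of wt 1, and that of wt 2 at 94.2%. Both ko libraries were thus shallower than both wt libraries. Absolute depth is unknown, because no counts were used here.

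Of the 47 genes, 8 fell and 0 rose (17.0% fell, against 6.20% of all tested genes, while 6.66% of all tested genes rose; limma, adjusted p below 0.05). The 8 genes were Rfc3, Rpa3, Rrm1, Mcm7, Pcna, Lig1, Rrm2 and Mcm4. Their ko means lay 9.48% to 14.8% below their wt means. At an unadjusted p below 0.05, 15 genes were lower and 1, Rpa1, was higher, which is 31.9% lower against 15.0% of all tested genes, with 17.1% of all tested genes higher. The 47 genes had a median level of 45.4 FPKM, against 13.1 FPKM for all tested genes. Shares among tested genes of like level were not counted, so the part of level in these differences was not tested. The median log2 fold change over the 47 genes was -0.07, against 0.01 over all tested genes. Summed over the 47 genes, the level was 3299 and 3321 FPKM in ko and 3499 and 3516 FPKM in wt. In bulk RNA, fewer cells in S phase and less of these transcripts per cell cannot be told apart.

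The order of the libraries showed the same tilt. Both ko libraries lay below both wt libraries for 27 of the 47 genes (57.4%), against 28.8% of all tested genes. Both ko libraries lay above both wt libraries for 4 genes, Rpa1, Pold2, Rfc2 and Gmnn (8.51%, against 32.4% of all tested genes). The groups were thus separate for 31 of the 47 genes, against 61.2% of all tested genes, and overlapped for the remaining 16. Over the 47 genes, log2 values of the 2 ko libraries differed with an SD of 0.072 and those of the 2 wt libraries with an SD of 0.051. The decreases were small beside the other changes of these libraries, with a median absolute log2 fold change of 0.17 for the 8 genes and 0.31 for all 1400 genes past the threshold.

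**Figure D1:**
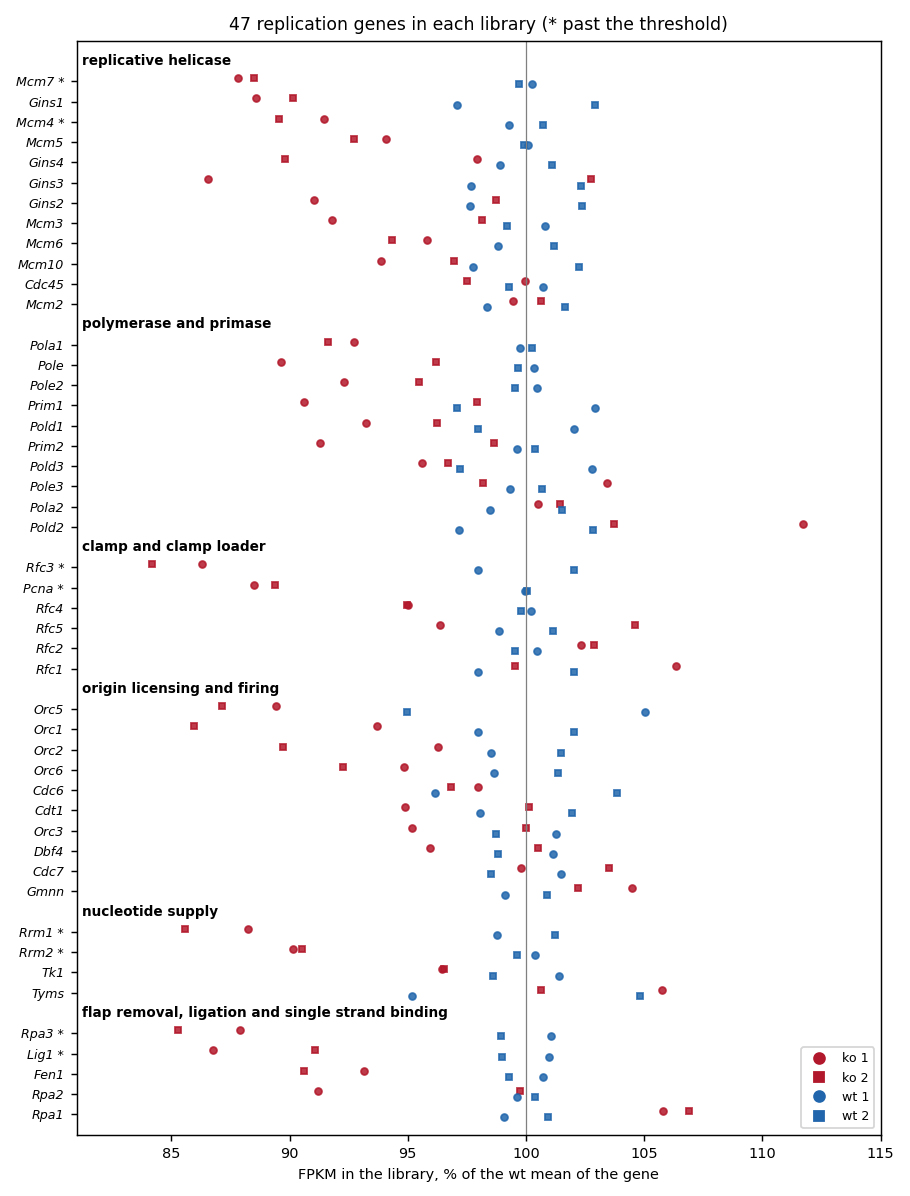
FPKM of each of the 47 replication genes in each library, as a percentage of the wt mean of that gene. Red symbols are ko libraries, blue symbols wt libraries, circles replicate 1 and squares replicate 2, and an asterisk marks the 8 genes past the threshold. Red symbols lie left of both blue symbols for 27 genes and right of both for 4.

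The 8 calls rested on small differences and on the way the spread was estimated. They dropped to 1 without ko 1 (Rrm1), 1 without ko 2 (Pcna), 4 without wt 1 and 3 without wt 2, and to 0 both with no filter on low values and without a trend of the spread on expression, while all 8 log2 fold changes stayed negative.

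**Figure D2:**
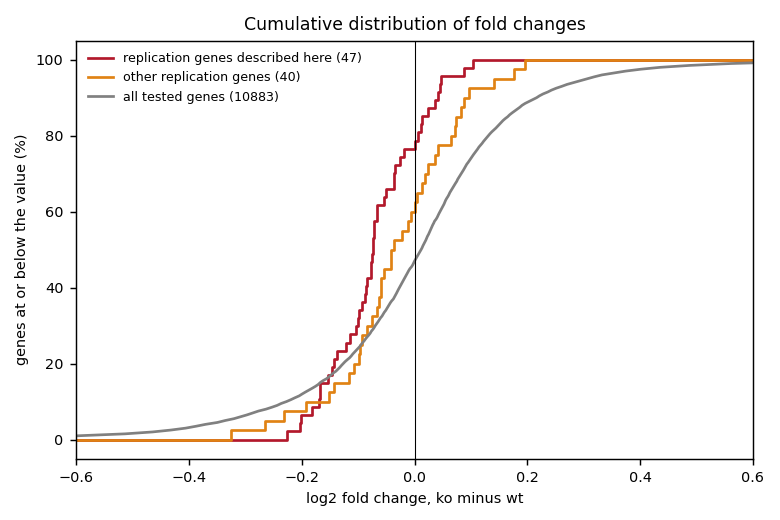
Cumulative share of genes (vertical axis, percent) at or below each log2 fold change, ko minus wt (horizontal axis). The curve of the 47 replication genes lies left of that of all 10883 tested genes over most of its middle, with a median of -0.07 against 0.01. The 40 other replication genes have a median of -0.04, and their curve crosses that of all tested genes near -0.1. The curve of all tested genes has the longer tails.

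Genes of DNA replication share promoter elements that bind E2F factors, which switch on S phase genes, and NF-Y, which binds CCAAT. Promoter sequences from RefSeq (GRCm38.p6, 250 bases before to 50 after the start) matched 39 of the 47 genes. An E2F motif, searched as TTTCGCGC, TTTGGCGC or TTTCCCGC on both strands, was present in 15 of the 39 (38.5%), against 2.12% of all 27025 genes with a promoter entry and 4.49% of the 7748 tested genes matched by symbol. A CCAAT motif, searched on both strands, was present in 22 of the 39 (56.4%), against 41.1% of all genes with an entry and 44.1% of the tested genes matched. These shares describe the sequences and do not use the expression values. The stretches before the RefSeq start of 4 genes that fell are shown. Rfc3 and Mcm7 hold an E2F match and Pcna and Rrm1 do not, while all 4 hold a CCAAT match. Lig1, which also fell and had an E2F but no CCAAT motif, is not shown. Capitals mark each match of either motif. In the GENCODE M21 annotation, used for gene positions below, the Mcm7 stretch lies inside the gene. Those of Rfc3 and Pcna overlap their genes there.

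Rfc3 (chr5:151651209-151651458, minus strand): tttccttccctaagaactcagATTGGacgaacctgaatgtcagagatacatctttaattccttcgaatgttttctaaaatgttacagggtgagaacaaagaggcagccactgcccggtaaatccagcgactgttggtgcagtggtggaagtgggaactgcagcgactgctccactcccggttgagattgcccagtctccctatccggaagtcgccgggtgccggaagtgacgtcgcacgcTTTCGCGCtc
Mcm7 (chr5:138171884-138172133, minus strand): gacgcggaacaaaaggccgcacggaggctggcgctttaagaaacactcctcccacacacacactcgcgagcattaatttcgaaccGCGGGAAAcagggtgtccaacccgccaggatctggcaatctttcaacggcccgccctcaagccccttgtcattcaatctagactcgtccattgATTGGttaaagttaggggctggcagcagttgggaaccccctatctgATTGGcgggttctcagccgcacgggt
Pcna (chr2:132253181-132253430, minus strand): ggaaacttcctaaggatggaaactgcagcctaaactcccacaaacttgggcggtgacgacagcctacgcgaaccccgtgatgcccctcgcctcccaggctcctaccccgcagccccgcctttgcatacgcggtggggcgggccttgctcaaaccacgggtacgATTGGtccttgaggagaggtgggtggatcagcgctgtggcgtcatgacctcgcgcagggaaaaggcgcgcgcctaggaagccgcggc
Rrm1 (chr7:102441445-102441694, plus strand): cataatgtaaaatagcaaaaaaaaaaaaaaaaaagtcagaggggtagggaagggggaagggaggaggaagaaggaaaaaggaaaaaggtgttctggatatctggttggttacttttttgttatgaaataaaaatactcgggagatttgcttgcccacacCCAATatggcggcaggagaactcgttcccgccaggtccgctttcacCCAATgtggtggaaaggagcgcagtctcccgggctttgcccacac

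In Rfc3 an E2F match began 10 bases before the RefSeq start, and a CCAAT match lay on the opposite strand 229 bases before it. Mcm7 had an E2F match on the opposite strand 165 bases before the start and CCAAT matches on the opposite strand 72 and 26 bases before it. Pcna had no E2F match in this window and a CCAAT match on the opposite strand 87 bases before the start. Rrm1 had none of the E2F letters either and had CCAAT matches 91 and 45 bases before the start. The 15 genes with an E2F motif had a median log2 fold change of -0.08 and 3 calls. The 24 without it had a median of -0.06 and 4 calls. For CCAAT the medians were -0.09 in the 22 genes with it, of which 6 were called, and -0.04 in the 17 without, with 1 call. Of all tested genes 6.20% fell. Calls among all tested genes with each motif were not counted, so a link between motif and fall was not tested. Mcm4 was not among the matched genes.

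Of the helicase genes Mcm7 and Mcm4 fell in ko, where 6.20% of all tested genes fell. The 12 genes summed to 1124 and 1134 FPKM in ko and 1197 and 1208 FPKM in wt. Of the 12 fitted changes 11 were below 0, and their median log2 fold change was -0.08, against 0.01 over all tested genes. All 12 genes were measured in the same 4 libraries, so the 11 are not separate tests. Mcm7 (ENSMUSG00000029730, GRCm38 chromosome 5, 138164583 to 138172422, minus strand), a subunit of the ring, had 144.4 and 145.5 FPKM in ko, against 164.9 and 164.0 FPKM in wt. It fell by 0.18 ± 0.03 (SE) on the log2(FPKM + 1) scale used for all fold changes (limma adjusted p = 0.0128). Mcm4 (ENSMUSG00000022673, chromosome 16, 15623897 to 15637400, minus strand), another subunit, had 124.8 and 122.1 FPKM in ko, against 135.4 and 137.4 FPKM in wt, and fell by 0.14 ± 0.03 (SE; limma adjusted p = 0.0268). Neither gene's groups overlapped. With a trend on transcript GC content removed, Mcm4 missed the threshold (limma adjusted p = 0.0521, range over all alternatives 0.0204 to 0.126).

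The other ring subunits did not pass the threshold. Mcm5 had 161.3 and 159.0 FPKM in ko and 171.6 and 171.4 FPKM in wt, with a log2 fold change of -0.10 ± 0.03 (SE; limma adjusted p = 0.0524). Mcm6, the most abundant of the 6, had 229.5 and 226.0 FPKM in ko and 236.6 and 242.4 FPKM in wt (limma adjusted p = 0.113), and both ko values lay below both wt values. Mcm3 had 196.0 and 209.6 FPKM in ko and 215.3 and 211.8 FPKM in wt, again without overlap (limma adjusted p = 0.212). Mcm2, in contrast, had overlapping groups. It had 121.8 and 123.2 FPKM in ko and 120.5 and 124.5 FPKM in wt, with a log2 fold change of 0.00 ± 0.03 (SE), whose sign changed with the scaling. Compared by length, the level of the ring subunits ran from 123 FPKM for Mcm2 to 234 FPKM for Mcm6, a range of 1.91-fold. Mcm7 made up 14.8% of the ring sum in each ko library, against 15.8% and 15.6% in the wt libraries, while Mcm2 made up 12.5% in each ko library, against 11.5% and 11.8% in the wt libraries.

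The partners that activate the ring were less abundant, and none of them passed the threshold. The GINS genes averaged 11.5 FPKM for Gins3 to 21.5 FPKM for Gins2 and summed to 69.2 and 71.5 FPKM in ko and 74.0 and 77.2 FPKM in wt. Gins1 showed the largest difference of the 4, with 18.9 and 19.2 FPKM in ko and 20.7 and 21.9 FPKM in wt (log2 fold change -0.15 ± 0.05 SE, limma adjusted p = 0.0921). Gins2, Gins3 and Gins4 had log2 fold changes of -0.07, -0.08 and -0.09, with SEs of 0.06, 0.09 and 0.06. Cdc45, which joins the ring with GINS, had 45.6 and 44.5 FPKM in ko and 46.0 and 45.3 FPKM in wt, and its groups overlapped. Mcm10, a factor needed to activate the helicase, had 31.4 and 32.4 FPKM in ko and 32.7 and 34.2 FPKM in wt (limma adjusted p = 0.343). Gins2 and Cdt1 were deposited under 1 locus shared by 76 genes, so their separation from neighbours in the authors' estimate is uncertain.

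**Figure D3:**
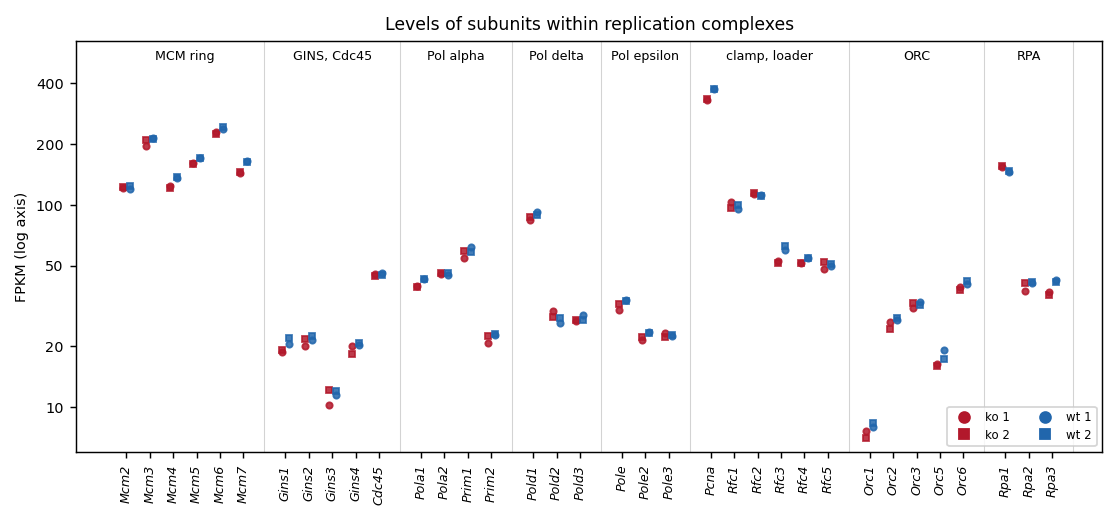
FPKM (log axis) of the subunits of 8 groups of replication genes in each library. Red symbols are ko libraries and blue symbols wt libraries, circles replicate 1 and squares replicate 2. Mean levels run from 7.75 FPKM for Orc1 to 40.03 FPKM for Orc6 in the origin recognition complex, a wider range than between the ko and wt symbols of either gene.

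Among the polymerase and primase genes 0 passed the threshold in limma, and at an unadjusted p below 0.05 only Pola1 was lower and none was higher. The 10 genes summed to 377.9 and 386.6 FPKM in ko and 399.96 and 394.38 FPKM in wt. For 6 of them both ko values lay below both wt values, where 28.8% of all tested genes did so. Pola1, the catalytic subunit of polymerase alpha, showed the largest decrease, with 39.9 and 39.4 FPKM in ko and 42.9 and 43.2 FPKM in wt (log2 fold change -0.11 ± 0.04 SE, limma adjusted p = 0.0784). Pola1 spans 327.4 kb, and with a trend on genomic span removed its log2 fold change was 0.02. Its partner Pola2 had 45.8 and 46.2 FPKM in ko and 44.9 and 46.2 FPKM in wt, with overlapping groups. The primase subunits Prim1 and Prim2 had log2 fold changes of -0.08 and -0.07, and that of Prim2, which spans 216.0 kb, was 0.04 with the span trend removed.

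Pold1, the catalytic subunit of polymerase delta and the most abundant of the 10 genes, had 84.7 and 87.4 FPKM in ko and 92.7 and 89.0 FPKM in wt (log2 fold change -0.08 ± 0.03 SE, limma adjusted p = 0.184). The accessory subunit Pold2 had 30.0 and 27.8 FPKM in ko and 26.1 and 27.6 FPKM in wt, both ko values above both wt values (log2 fold change 0.10 ± 0.05 SE, limma adjusted p = 0.241). Its lowest ko value and highest wt value differed by less than the spread within each group. Pold3 had a log2 fold change of -0.05. In polymerase epsilon, the leading strand enzyme, the catalytic subunit Pole had 30.3 and 32.6 FPKM in ko and 33.9 and 33.7 FPKM in wt, and Pole2 had 21.6 and 22.3 FPKM in ko and 23.5 and 23.3 FPKM in wt (limma adjusted p = 0.182 and 0.232). Neither pair of groups overlapped. Pole3, a histone-fold subunit also found in a chromatin remodelling complex, had 23.4 and 22.2 FPKM in ko and 22.4 and 22.7 FPKM in wt.

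Pcna (ENSMUSG00000027342, chromosome 2, 132249162 to 132253314, minus strand), the clamp that tethers polymerases to DNA and the most abundant of the 47 transcripts, had 331.7 and 334.9 FPKM in ko, against 374.6 and 375.0 FPKM in wt. It fell by 0.17 ± 0.02 (SE) on the log2 scale (limma adjusted p = 0.0109). Rfc3 (ENSMUSG00000033970, chromosome 5, 151642756 to 151651242, minus strand), a small subunit of the loader, had 53.0 and 51.7 FPKM in ko, against 60.2 and 62.7 FPKM in wt. It fell by 0.23 ± 0.04 (SE; limma adjusted p = 0.0179), the largest decrease among the 47 genes. The groups of Pcna and Rfc3 did not overlap.

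The other loader subunits did not pass the threshold. Rfc4 had 52.0 and 52.0 FPKM in ko and 54.8 and 54.6 FPKM in wt (log2 fold change -0.07 ± 0.03 SE, limma adjusted p = 0.176). Rfc2 had 113.8 and 114.4 FPKM in ko and 111.7 and 110.7 FPKM in wt (log2 fold change 0.04 ± 0.03 SE, limma adjusted p = 0.396). Both ko values of Rfc2 lay above both wt values. Rfc1, the large subunit, and Rfc5 had overlapping groups, with log2 fold changes of 0.04 and 0.01, and the sign of Rfc5 changed with the scaling. The ratio of Rfc3 to Rfc2 FPKM was 0.466 and 0.452 in ko and 0.539 and 0.566 in wt. The 5 loader genes summed to 371.1 and 367.8 FPKM in ko and 372.1 and 378.5 FPKM in wt. The pairs of genes set against each other as ratios were picked after their values were seen. With 2 libraries against 2, an exact two-sided permutation test of such a ratio cannot give a p below 33.3%, so the ratios carry no test.

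Of the origin licensing and firing genes 0 passed the threshold in limma, and at an unadjusted p below 0.05 Orc5 and Orc6 were lower and none was higher. The 10 genes summed to 326.0 and 327.6 FPKM in ko and 334.4 and 336.6 FPKM in wt. The 5 subunits of the origin recognition complex among the 47 genes had negative log2 fold changes, from -0.03 for Orc3 to -0.17 for Orc5, although Orc3 was at 0.03 with the GC content trend removed. They summed to 120.6 and 118.3 FPKM in ko and 128.0 and 127.6 FPKM in wt. Orc4, which is outside the 47 genes and this sum, had 29.49 and 32.78 FPKM in ko and 35.90 and 28.55 FPKM in wt, with overlapping groups (log2 fold change -0.04 ± 0.11 SE). Orc5 had 16.38 and 15.96 FPKM in ko and 19.24 and 17.39 FPKM in wt (log2 fold change -0.17 ± 0.06 SE, limma adjusted p = 0.121). Orc6 had 39.2 and 38.2 FPKM in ko and 40.8 and 41.9 FPKM in wt (limma adjusted p = 0.149). Orc1, the subunit that cycles with the cell cycle in mammalian cells and the least abundant of the 47 transcripts, had 7.65 and 7.02 FPKM in ko and 8.00 and 8.33 FPKM in wt (limma adjusted p = 0.245). Orc2 had a log2 fold change of -0.10 (limma adjusted p = 0.219). In Orc1, Orc2, Orc5 and Orc6 both ko values lay below both wt values, as they did for 28.8% of all tested genes.

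The regulators of loading and firing summed to 205.4 and 209.4 FPKM in ko and 206.4 and 209.0 FPKM in wt. Groups overlapped for 4 of these 5 genes, where they were separate for 61.2% of all tested genes. Cdc6, which acts with the origin recognition complex in loading the ring, had 28.97 and 28.63 FPKM in ko and 28.43 and 30.70 FPKM in wt. Cdt1, which brings the ring to the origin, had 37.3 and 39.4 FPKM in ko and 38.5 and 40.1 FPKM in wt. Gmnn, which encodes the Cdt1 inhibitor geminin and was the most abundant gene of the group, had 58.8 and 57.5 FPKM in ko and 55.7 and 56.7 FPKM in wt (log2 fold change 0.05 ± 0.03 SE, limma adjusted p = 0.386), without overlap. Cdc7 and Dbf4, the kinase and its activator, had log2 fold changes of 0.02 and -0.03 with an SE of 0.04 each.

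Both subunits of ribonucleotide reductase, the enzyme that makes deoxyribonucleotides, fell. Rrm1 (ENSMUSG00000030978, chromosome 7, 102441695 to 102469771, plus strand), the large subunit, had 128.9 and 125.0 FPKM in ko, against 144.3 and 147.9 FPKM in wt, and fell by 0.20 ± 0.03 (SE; limma adjusted p = 0.015). Rrm2 (ENSMUSG00000020649, chromosome 12, 24708241 to 24714146, plus strand), the small subunit, had 163.8 and 164.5 FPKM in ko, against 182.4 and 181.0 FPKM in wt, and fell by 0.15 ± 0.02 (SE; limma adjusted p = 0.0188). The groups overlapped in neither. Together the subunits stood at 88.8% of their wt sum. The enzymes of thymidine nucleotides did not pass the threshold. Tyms, thymidylate synthase, had 28.7 and 27.4 FPKM in ko and 25.9 and 28.5 FPKM in wt, with overlapping groups. Tk1, the thymidine kinase of the salvage route, had 60.5 and 60.5 FPKM in ko and 63.6 and 61.8 FPKM in wt (log2 fold change -0.05 ± 0.03 SE, limma adjusted p = 0.336).

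**Figure D4:**
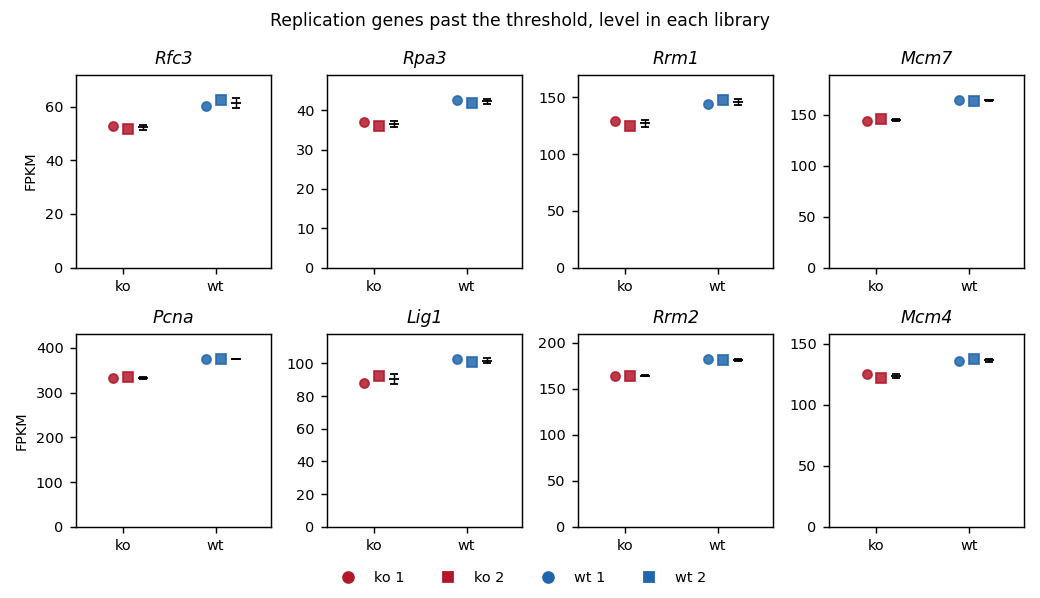
FPKM of the 8 replication genes past the threshold in each ko library (red) and wt library (blue), circles replicate 1 and squares replicate 2, with the mean and SD of each group (n = 2) in black beside the points. In each panel both ko libraries lie below both wt libraries, by 14.8% of the wt mean for Rfc3 and 9.48% for Mcm4.

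On the lagging strand the ligase fell and so did 1 of the 3 subunits of the single strand binding complex RPA. Lig1 (ENSMUSG00000056394, chromosome 7, 13277283 to 13311433, plus strand), the replicative DNA ligase, had 88.2 and 92.5 FPKM in ko, against 102.6 and 100.6 FPKM in wt, and fell by 0.17 ± 0.03 (SE; limma adjusted p = 0.0308). Fen1, the nuclease that removes the flap before ligation, had 68.3 and 66.4 FPKM in ko and 73.8 and 72.8 FPKM in wt (log2 fold change -0.12 ± 0.03 SE, limma adjusted p = 0.0569). Neither gene's groups overlapped. Rpa3 (ENSMUSG00000012483, chromosome 6, 8255936 to 8259173, minus strand), the smallest subunit of RPA, had 37.1 and 36.0 FPKM in ko, against 42.7 and 41.8 FPKM in wt, and fell by 0.20 ± 0.04 (SE; limma adjusted p = 0.0246). Its transcript had the lowest GC content of the 47 at 34.2%, and without the trend on GC content it missed the threshold (limma adjusted p = 0.059, range over all alternatives 0.018 to 0.0991).

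Rpa1, the large subunit that makes most contacts with the single strand, had 154.9 and 156.5 FPKM in ko and 145.1 and 147.7 FPKM in wt (log2 fold change 0.09 ± 0.03 SE, limma adjusted p = 0.0748), without overlap. Rpa2 had 37.7 and 41.2 FPKM in ko and 41.2 and 41.5 FPKM in wt, with overlapping groups. The ratio of Rpa1 to Rpa3 FPKM was 4.17 and 4.34 in ko and 3.40 and 3.53 in wt. The 3 subunits summed to 229.7 and 233.7 FPKM in ko and 228.9 and 231.0 FPKM in wt.

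The 8 genes that fell were mostly abundant ones, for which the spread between libraries was small. Their median level was 133.2 FPKM, against 40.03 FPKM for the 39 others, and their median SE was 0.03, against 0.04. Of the 11 genes at 100 FPKM or more on average, 5 fell, where 6.20% of all tested genes fell. The share among all tested genes at that level was not counted. Less abundant genes with decreases of similar size, such as Orc5, Gins1 and Orc1 at log2 fold changes of -0.17, -0.15 and -0.14, carried SEs of 0.06, 0.05 and 0.07 and did not pass.

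**Figure D5:**
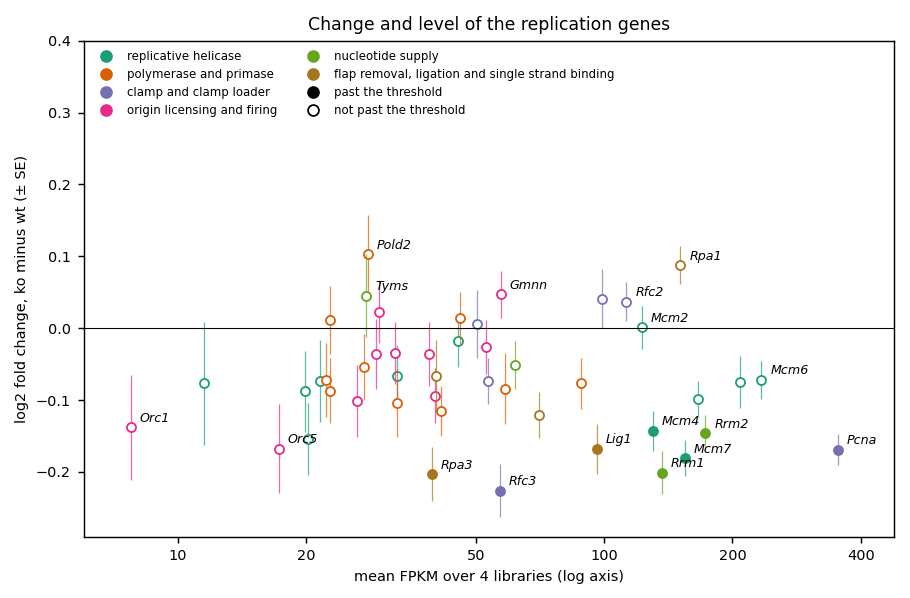
Log2 fold change, ko minus wt, with its SE (vertical axis) against mean FPKM over the 4 libraries (log axis) for the 47 genes, coloured by group. Filled symbols are the 8 genes past the threshold, which lie at 39.4 FPKM or above, and open symbols at lower levels have wider error bars.

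Nsd2 lies on chromosome 5, as do 10 of the 47 genes, of which Mcm7 and Rfc3 fell. The median log2 fold change of these 10 was -0.01, against -0.08 for the 37 on other chromosomes, of which 6 fell. Over all chromosomes, 6.20% of all tested genes fell. Tyms, the closest to Nsd2 at 3.75 Mb, had overlapping groups. Of the 8 genes that fell, 2 overlap another protein coding gene in the GENCODE M21 annotation, Mcm7 with Cops6 and Ap4m1 and Lig1 with Zswim9, all on the opposite strand. Whether strand was used in counting is not stated, so reads of these neighbours may not be separated from those of Mcm7 and Lig1.

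Among 40 further genes of replication listed by name, 4 fell and 1 rose, where 6.20% of all tested genes fell and 6.66% rose, and their median log2 fold change was -0.04. Pold4, the smallest subunit of polymerase delta, had 158.3 and 154.6 FPKM in ko, against 180.2 and 177.5 FPKM in wt, and fell by 0.19 (limma adjusted p = 0.0131). Rnaseh2b, a subunit of the ribonuclease that removes ribonucleotides from DNA, had 31.1 and 29.9 FPKM in ko, against 34.8 and 37.2 FPKM in wt (limma adjusted p = 0.0305). Dut, which destroys dUTP, had 116.2 and 114.7 FPKM in ko, against 124.0 and 126.3 FPKM in wt (limma adjusted p = 0.045). Samhd1, which degrades deoxyribonucleotides, rose, with 221.4 and 221.0 FPKM in ko, against 208.1 and 205.6 FPKM in wt (limma adjusted p = 0.0485). With median-of-ratios scaling and with quantile normalization Samhd1 missed the threshold (limma adjusted p = 0.0837 and 0.0519, range over all alternatives 0.0355 to 0.221). Without ko 1, without wt 1 or without wt 2 the falls numbered 2 and without ko 2 they numbered 1, and Samhd1 missed the threshold without any of the 4 libraries.

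Of 20 mitotic genes 1 fell and 0 rose in limma (at an unadjusted p below 0.05, 7 were lower and 0 higher, where 15.0% of all tested genes were lower), which compares with 6.20% of all tested genes that fell. They had a median log2 fold change of -0.06 and sums of 1532 and 1522 FPKM in ko and 1596 and 1613 FPKM in wt. Mki67, the gene that fell, averaged 199.4 ± 0.91 FPKM in ko, against 216.7 ± 0.45 FPKM in wt (SD, n = 2 each). Of 10 markers of naive and follicular B cells, which rarely divide, 5 rose and 0 fell in limma, where 6.66% of all tested genes rose. At an unadjusted p below 0.05, 7 were higher and 0 lower, where 17.1% of all tested genes were higher. The 10 markers summed to 304.0 and 303.9 FPKM in ko and 259.8 and 257.8 FPKM in wt. Cr2 had 97.4 and 98.5 FPKM in ko, against 82.6 and 81.1 FPKM in wt. Of 15 stress and immediate early genes 13 were tested and 6 rose, where 6.66% of all tested genes rose. At an unadjusted p below 0.05, 8 were higher and 1 lower, where 17.1% of all tested genes were higher and 15.0% lower. The 15 genes summed to 755.7 and 759.9 FPKM in ko and 702.2 and 696.3 FPKM in wt.

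Most markers of cells outside the B lineage were low. For the calls among them, 6.20% of all tested genes fell and 6.66% rose. At an unadjusted p below 0.05, 15.0% of all tested genes were lower and 17.1% higher. Of monocytes and macrophages 11 markers together had 10.3 and 10.6 FPKM in ko and 7.02 and 6.01 FPKM in wt, and 1 of the 2 tested, Lyz2, rose. The 7 dendritic cell markers summed to 11.62 and 10.98 FPKM in ko and 8.85 and 9.29 FPKM in wt, mostly from Flt3, the 1 tested, which rose, while Clec9a, Siglech and Batf3 were at 0 in at least 1 library. The 11 T cell markers summed to 138.8 and 145.9 FPKM in ko and 133.4 and 134.6 FPKM in wt, mostly from Cxcr5, which B cells also express. Next by level came Lck, with 39.45 and 44.25 FPKM in ko and 36.93 and 36.35 FPKM in wt. Trac followed, with 1.156 and 1.425 FPKM in ko and 0.456 and 0.355 FPKM in wt, and was not tested. Of the 2 tested T cell markers 0 were called in limma, with Lck higher at an unadjusted p below 0.05. Cd3e, Cd3d, Cd3g and Cd8b1 were at 0 in at least 1 library. The 4 listed neutrophil markers summed to 0.261 and 0.409 FPKM in ko and 0.0402 and 0.386 FPKM in wt, and none was tested. The 6 listed erythroid markers summed to 24.7 and 24.2 FPKM in ko and 20.9 and 24.3 FPKM in wt, and of 4 tested 0 were called in limma, with 1 lower and 1 higher at an unadjusted p below 0.05. Within the B lineage, the 7 plasma cell markers summed to 750.6 and 747.5 FPKM in ko and 761.7 and 762.6 FPKM in wt. Most of this came from Jchain, with 575.9 and 571.9 FPKM in ko and 580.8 and 579.2 FPKM in wt. Of 6 tested plasma cell markers 0 were called in limma, with 1 lower at an unadjusted p below 0.05. The part of the naive B cell, stress and mitotic transcripts, or of the shallower ko libraries, in the lower replication transcripts was not tested.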

How the data were processed

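An mRNA kit was used on RNA of sorted cells, per the labels' protocols. The authors deposited 1 table for each of 4 libraries, with gene ID, symbol, locus and FPKM in its columns, per the file headers. Per the submitters' processing notes, mm10, TopHat2 2.1.1 and Bowtie2 2.2.9 are named without roles; the tool behind FPKM, its annotation and its strand setting are not given in the sources used. Genes that a table lacks were given 0 there. FPKM hides depth and does not correct for GC content.

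Differences of log2(FPKM + 1), ko minus wt, were fitted with limma 3.58.1 (R 4.3.3), letting the spread follow expression. The fit covered 10883 genes whose mean reached 1 FPKM, with p-values adjusted by Benjamini-Hochberg over all of them at 0.05. The log2(FPKM + 1) scale understates changes of low genes. Relative depth was read from FPKM values below 0.15. Of 20735 IDs, 99.4% matched GENCODE M21 on GRCm38, the assembly of mm10, used for positions, spans and GC content. Joins used pandas 2.3.3 under Python 3.11.15.

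The 47 genes, the marker lists and the list of other replication genes were chosen with earlier results of these data known. Values per library are given for genes past the threshold and for the most abundant and most changed gene of each of 6 groups; genes described beyond that rule were named after their values were seen. From the other replication genes those past the threshold are named, except 1 that is not reported here, and from each marker list at most 3 of the most abundant, beside markers at 0 and genes that make up a count. Alternatives covered the pseudocount, the filter, scaling, the spread model, a replicate block, GC content, genomic span, the threshold and leaving out each library. No gene above 0 had the same FPKM in both libraries of a group, so neither table of a group copied the other. That check cannot tell separate mice from technical repeats. Each library was counted as a sample.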

Additional observations from a re-analysis of the deposited data

How the results depend on the processing

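The 1400 genes past the threshold became 2540 at an adjusted p below 0.10, 14 with no filter on low values, 536 without a trend of the spread and 348 to 595 without 1 library, and the 8 falls became 0, 0 and 1 to 4 in the last 3 cases. Rises numbered 1 (Rpa1) at an adjusted p below 0.10 and with the genomic span trend removed, and 0 to 0 without 1 library. The 4 falls of other replication genes became 10 at 0.10, 0 with no filter, 1 without the trend and 1 to 2 without 1 library, and their 1 rise became 0 with no filter, without the trend, with median-of-ratios scaling, with quantile normalization and without any library. Whether equal replicate numbers mark paired libraries is not stated. Differences between replicate 1 and 2 correlated at -0.083 between ko and wt, a single value that cannot settle it. With a replicate block 917 genes, 7 falls (without Lig1), 2 other falls and 0 other rises passed. The median of the 47 log2 fold changes was -0.083 to -0.046 without 1 library. Signs near 0 changed. Median-of-ratios scaling gave Mcm2 -0.019, Pola2 -0.0055, Pole3 -0.0082 and Rfc5 -0.0136; quantile normalization gave Mcm2 -0.0273, Pola2 -0.013 and Rfc5 -0.0166. Removing the GC trend gave Mcm2 -0.0156, Rfc5 -0.0073, Orc3 0.0258 and Dbf4 0.0336, and removing the span trend gave Mcm2 -0.0183, Pola1 0.0227, Prim2 0.0401, Pole3 -0.0317 and Rfc5 -0.0208. Without 1 library the ranges were -0.023 to 0.0243 for Mcm2, -0.1908 to 0.0367 for Gins3, -0.0077 to 0.0353 for Pola2, -0.0255 to 0.0469 for Pole3, -0.0063 to 0.0884 for Rfc1, -0.0522 to 0.0637 for Rfc5, -0.0894 to 0.0179 for Cdc6, -0.0739 to 0.0023 for Cdt1, -0.0029 to 0.0481 for Cdc7, -0.0584 to 0.0072 for Dbf4 and -0.0221 to 0.1121 for Tyms. The cause was not tested; leaving out a library leaves 3 samples.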
